A study of Mus musculus with 2 samples.

Results

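Tbx2, Tbx3, Tbx4, Tbx5, Tbx15 and Tbx18 are the T-box transcription factor genes best known from limb mesenchyme. They were chosen by name, and all 6 of 6 were listed among the 13916 protein-coding genes of the authors' deposited comparison of distal with proximal regions of mouse limb-mesenchymal organoids. T-box proteins share a DNA-binding domain, the T-box, and act as activators or repressors of transcription. Tbx5 starts the forelimb bud and Tbx4 supports outgrowth of the hindlimb bud, in each case through Fgf10, the mesenchymal growth factor that keeps the overlying ectoderm signalling. Tbx2 and Tbx3 are mainly repressors of the limb margins and of the tissue between the digits, while Tbx15 and Tbx18 are close relatives needed for proximal skeletal elements such as the shoulder blade.

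Both groups came from embryonic limb mesenchymal cells of the Slc:ICR mouse strain, grown as organoids for 48 h in medium with Fgf8b and Wnt3a and frozen on day 2. The labels name 5 organoids from 4 cultures, give no agent or allele that differs between the groups, and do not say whether the cells came from forelimbs or hindlimbs. By photo-isolation chemistry, in which ultraviolet light uncages the reverse transcription primers in a chosen area of a tissue section, 5 distal and 5 proximal regions were captured, each with its own barcode. Each side was sequenced as 1 pool of its regions, so the side and the library cannot be told apart, and all p-values measure the spread between regions only. The labels do not tie regions to organoids. Both sides drew on the same 4 cultures and some organoids shared a culture, so the regions are not independent cultures, although every test here treats them as independent.

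Counts for each region were worked back from the authors' deposited means, log2 changes and standard errors, as described with the processing, and exactly 1 set of whole counts fitted each of the 6 genes. Regions are numbered within a side from the deepest to the shallowest. The size factors (the relative depths by which counts are divided) summed to 3.30 times as much in proximal as in distal. Total counts of a region were not recovered. The sum of all deposited means multiplied by a region's size factor gave an estimate of 214774 to 345649 counts for the proximal regions. For the distal regions this estimate was 46991 to 118978. A normalized count below is a count divided by its region's size factor, and means are given ± SD over the 5 regions of a side.

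The limb mesenchyme markers were present: 9 of 9 were in the authors' deposited table, led by Prrx1, Msx1 and Pdgfra with means of 159, 121 and 99.2 normalized counts. Of these, the authors' deposited table called Msx1 (log2 change 1.12) and Lhx2 (1.02) in the direction of distal and Pdgfra (-0.86) in the direction of proximal. For surface ectoderm, endothelium, blood and neural crest, 4 of 9, 4 of 5, 1 of 7 and 4 of 5 markers were in the table. These stayed low, with sums of at most 1.96, 5.73, 2.48 and 7.16 normalized counts in any region. The blood value thus rests on 1 gene, and the absent markers gave no value. Markers of skeletal muscle were not low in proximal: the 8 markers summed to 27.4 to 68.6 normalized counts in the proximal regions and 0 to 11.8 in the distal ones.

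Tbx5 was the only one of the 6 genes whose difference passed the test, and it was higher in proximal. Tbx3 had the largest fitted difference, also towards proximal, but rested on 3 distal counts and did not pass. Tbx4, Tbx15 and Tbx18 had smaller fitted differences in the same direction that did not pass, and Tbx2 gave a value near 0 with a wide interval. A gene counts as called where the authors' deposited adjusted p is under 0.05, which held for 1 of the 6 genes beside 0.977% of all 13916 genes (0.582% in the direction of proximal) and 3.03% of the 3757 genes whose mean was 10 or more. Tbx5 and Tbx3, 2 of the 6, had an unadjusted p under 0.05 by the authors' deposited table, beside 6.07% of all genes. Log2 changes are distal over proximal, so a negative value means higher in proximal. The value was below 0 for 5 of the 6 genes, beside 53.8% of the 7085 genes with a mean in the same range.

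**Figure D1:**
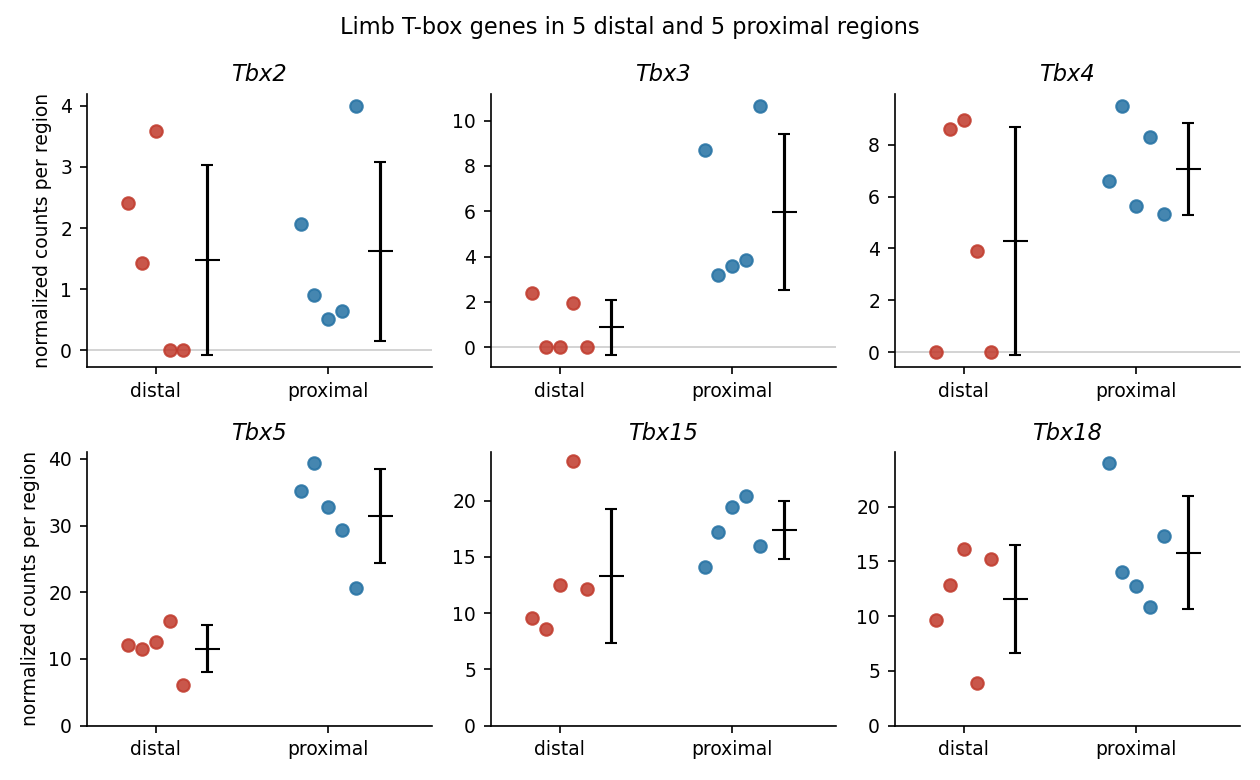
Normalized counts of each of the 6 genes (vertical axis, linear, its own scale for each gene) in the 5 distal regions (red) and 5 proximal regions (blue), with the mean and SD of each side in black. The proximal Tbx5 points lie between 20.6 and 39.4, all above the distal ones, which reach 15.7, and the Tbx3 points of both sides do not overlap either, while those of the other 4 genes do.

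Tbx5, the forelimb initiation factor, lies on chromosome 5 at 119832668 to 119885219 on the plus strand (GRCm38, ENSMUSG00000018263). The proximal regions held 85, 87, 64, 46 and 31 Tbx5 counts, or 35.2, 39.4, 32.7, 29.4 and 20.6 normalized counts. In distal regions the counts were 10, 8, 7, 8 and 2, or 12.02, 11.5, 12.5, 15.7 and 6.09 normalized counts. All proximal regions stood above all distal regions, and the lowest value on each side was that of its shallowest region. The mean was 31.4 ± 7.06 normalized counts in proximal and 11.6 ± 3.47 in distal (SD, n = 5 regions each). The log2 change was -1.41 (standard error, SE, 0.32; adjusted p 0.00199) in the authors' deposited table, which is 2.67-fold higher in proximal with a 95% interval of 1.73 to 4.12. An exact two-sided permutation test over the regions gave p = 0.00794, the smallest that 5 against 5 regions allow. Counting error alone would give an SE of 0.26. Fewer cells that express Tbx5 and less Tbx5 RNA per cell cannot be told apart in such regions. Regions did not overlap between the sides for 2 of the 6 genes, Tbx5 and Tbx3, beside 5.36% (3.57% with proximal higher) of 112 genes taken at even steps from the table and searched in the same way. The highest mean among these 112 was 18.96 normalized counts, so none was as abundant as Tbx5.

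Ranked by p, Tbx5 was near the middle of the 136 called genes. Of the 13916 genes in the authors' deposited table, 66, Tbx5 included, had a p no larger than its own. A rank by p reflects depth as well as the size of a change. The authors' deposited table held 81 called genes with a negative log2 change, and 38 of them had a smaller p than Tbx5. Of the 1696 genes whose mean and standard error were within 1.5 times those of Tbx5, the nearest in log2 change over the 2 libraries in the authors' deposited table were Asb4 (-1.40), Mme (-1.35) and Chst2 (-1.34). Mme and Chst2 were called there, with adjusted p-values of 0.000718 and 0.0335, and Asb4 was not (0.0701).

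Tbx4, the hindlimb counterpart of Tbx5, lies on chromosome 11 at 85886422 to 85916097 on the plus strand (ENSMUSG00000000094). The proximal regions held 16, 21, 11, 13 and 8 counts, or 6.62, 9.50, 5.62, 8.30 and 5.33 normalized counts. The distal regions held 0, 6, 5, 2 and 0 counts, or 0, 8.59, 8.95, 3.92 and 0 normalized counts. Distal regions 2 and 3 therefore lay within the proximal range and the other distal regions below it. A count of 0 allows up to 3 counts, which is 3.61 normalized counts in distal region 1 and 9.13 in the shallow distal region 5, so only the first of these zeros was below the whole proximal range. For Tbx4 the authors' deposited table gave a log2 change of -0.67 (SE 0.57, adjusted p 0.991), and its 95% interval of -1.79 to 0.45 held changes in both directions. The exact permutation test gave p = 0.238.

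Both limb-type genes were detected, and Tbx4 and Tbx5 counts came together in all proximal regions. Tbx4 gave 18.1% of the 382 Tbx4 and Tbx5 counts in proximal (exact 95% binomial interval 14.3 to 22.3%, covering counting error only), and the single regions ranged from 14.7 to 22.03%. In distal it gave 27.1% of 48 counts (15.3 to 41.8%), with single regions from 0 to 42.9%. The intervals overlapped. The log2 change of Tbx5 minus that of Tbx4 was -0.74 (SE 0.65, 95% interval -2.03 to 0.54, taking both deposited errors as independent), so the 2 genes were not shown to differ in their change, nor to change alike. Among other genes used to tell the limb types apart, Pitx1, the hindlimb factor upstream of Tbx4, had 22 proximal and 0 distal counts. By proximal region these were 11, 5, 0, 0 and 6 counts, and the distal regions were shallower. The adjusted p of Pitx1 was 0.991 in the authors' deposited table, and the exact permutation test gave p = 0.167. Hoxa5 had a mean of 11.7 normalized counts and a log2 change of -0.78 (unadjusted p 0.0376, adjusted p 0.813), again in the authors' deposited table. Its regions narrowly did not overlap, with at least 11.7582 normalized counts in proximal and at most 11.7575 in distal. Hoxc4 and Isl1 had 1 count each, and the other 5 genes of that list were not in the table. None of the 4 listed genes was called.

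Tbx3, a repressor of the limb margins, lies on chromosome 5 at 119670669 to 119684724 on the plus strand (ENSMUSG00000018604), 148 kb before Tbx5. It had 21, 7, 7, 6 and 16 counts in the proximal regions, or 8.69, 3.17, 3.58, 3.83 and 10.7 normalized counts. In the distal regions it had 2, 0, 0, 1 and 0 counts, or 2.40, 0, 0, 1.96 and 0 normalized counts. The sides did not overlap, and proximal regions 1 and 5 stood above the other 3 proximal regions. In the distal regions without a count, 3 counts would be 4.30, 5.37 and 9.13 normalized counts, all above the 3 lower proximal regions, so a single distal zero does not show a lower level. The pooled counts, 57 in proximal and 3 in distal, gave a depth-corrected ratio of 5.76 with an exact 95% counting interval of 1.88 to 28.8. The authors' deposited table gave Tbx3 a log2 change of -2.54 (SE 0.97, unadjusted p 0.00837, adjusted p 0.365). The exact permutation test over regions gave p = 0.00794, again the smallest possible, with no adjustment over genes.

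Tbx2, the closest relative of Tbx3, lies on chromosome 11 at 85832551 to 85841948 on the plus strand (ENSMUSG00000000093), 44.5 kb before Tbx4. It was the least covered of the 6 genes, with 15 proximal and 5 distal counts. The proximal regions gave 2.07, 0.905, 0.511, 0.638 and 3.99 normalized counts and the distal regions 2.40, 1.43, 3.58, 0 and 0. The sides overlapped across nearly their whole range, and the highest proximal regions, 5 and 1, were also the highest for Tbx3. Its log2 change was 0.05 (SE 0.998, adjusted p 0.9998) in the authors' deposited table, and that sign was not stable under other settings. The 95% interval, -1.90 to 2.01, holds the value of -1.41 found for Tbx5, so a difference of that size was not excluded for Tbx2 at this depth. The change of Tbx3 minus that of Tbx2 was -2.60 (SE 1.39, 95% interval -5.32 to 0.13), which includes 0.

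Tbx15, a mesenchymal factor of the limb and shoulder girdle skeleton, lies on chromosome 3 at 99240381 to 99354259 on the plus strand (ENSMUSG00000027868). Its proximal regions held 34, 38, 38, 32 and 24 counts, or 14.1, 17.2, 19.4, 20.4 and 15.98 normalized counts. Its distal regions held 8, 6, 7, 12 and 4 counts, or 9.61, 8.59, 12.5, 23.5 and 12.2 normalized counts. In distal, 4 regions lay below all proximal regions and region 4 lay above them all. The mean was 17.4 ± 2.57 normalized counts in proximal and 13.3 ± 5.96 in distal (SD, n = 5 regions each), and the exact permutation test gave p = 0.183. For Tbx15 the authors' deposited table gave a log2 change of -0.43 (SE 0.33, adjusted p 0.991, 95% interval -1.08 to 0.21).

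Tbx18, which takes part in patterning the somites and proximal mesenchyme, lies on chromosome 9 at 87702800 to 87731260 on the minus strand (ENSMUSG00000032419). The proximal regions held 58, 31, 25, 17 and 26 counts, or 23.99, 14.02, 12.8, 10.8 and 17.3 normalized counts. The distal regions held 8, 9, 9, 2 and 5 counts, or 9.61, 12.9, 16.1, 3.92 and 15.2 normalized counts. Distal regions 2, 3 and 5 lay within the proximal range and distal region 4, where Tbx15 was highest, was the lowest for Tbx18. The mean was 15.8 ± 5.15 normalized counts in proximal and 11.5 ± 4.95 in distal (SD, n = 5 regions each), with an exact permutation p of 0.246. The log2 change of Tbx18 was -0.49 (SE 0.38, adjusted p 0.991, 95% interval -1.23 to 0.25) in the authors' deposited table. The changes of Tbx18 and Tbx15 differed by -0.05 (SE 0.50, 95% interval -1.03 to 0.92), an interval that still holds differences of almost 1 log2 unit.

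**Figure D2:**
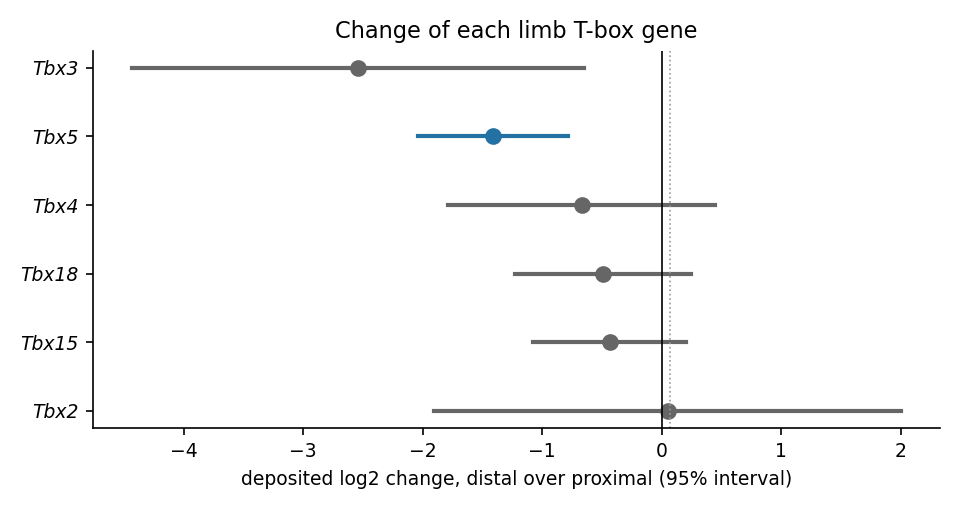
Log2 change, distal over proximal, of each of the 6 genes in the authors' deposited table (points) with its 95% interval (lines) on the horizontal axis, Tbx5 in blue as the 1 gene called, and the median of all genes dotted. The intervals of Tbx3 and Tbx5 lie below 0 and those of the other 4 genes include 0, with Tbx2 and Tbx3 spanning the widest ranges.

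Ordered by log2 change, the genes ran from Tbx3 through Tbx5, Tbx4, Tbx18 and Tbx15 to Tbx2. No neighbours in that order differed beyond their errors: the difference from Tbx3 to Tbx5 was 1.13 (95% interval -0.86 to 3.12), and that from Tbx5 to Tbx4 had an interval of -0.54 to 2.03. The 6 changes of the authors' deposited table had a median of -0.58, beside 0.07 over all genes and -0.05 over the genes with a mean in the same range.

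Levels were compared between genes per kilobase of annotated exon. Whether the reads covered whole transcripts or only their ends is not given in the sources used here, so these values rest on whole coverage. In proximal, Tbx5 led with 6.73 ± 1.51 normalized counts per kb, followed by Tbx15 with 4.65 ± 0.69, Tbx18 with 3.35 ± 1.09, Tbx4 with 2.08 ± 0.52, Tbx3 with 0.903 ± 0.52 and Tbx2 with 0.448 ± 0.40 (SD, n = 5 regions). Tbx5 was above Tbx15 in 5 of 5 proximal regions, by 2.08 ± 1.68 normalized counts per kb, and Tbx3 was above Tbx2 in 5 of 5, while the neighbours between them were in order in 4 of 5. In distal, Tbx15 stood at 3.55 ± 1.59, Tbx5 at 2.47 ± 0.74 and Tbx18 at 2.45 ± 1.05 normalized counts per kb. These 3 were not separated beyond the spread between regions: Tbx15 was above Tbx5 in 3 of 5 distal regions and Tbx5 above Tbx18 in 2 of 5. Distal Tbx4 had 1.26 ± 1.29, Tbx2 0.409 ± 0.43 and Tbx3 0.132 ± 0.18 normalized counts per kb. The order of levels was not tested.

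**Figure D3:**
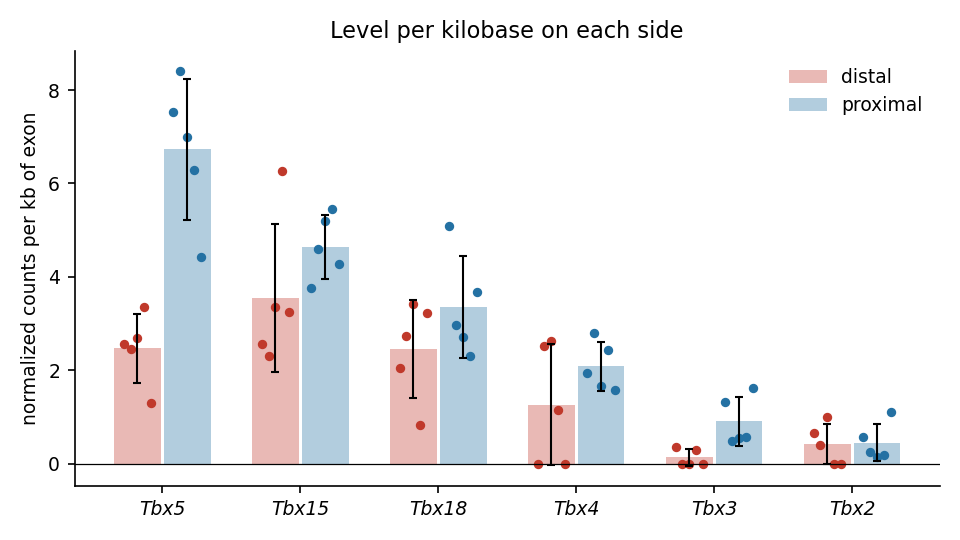
Normalized counts per kilobase of exon (vertical axis, linear, bars from 0) of the 6 genes, with bars for the mean of the 5 distal regions (red) and the 5 proximal regions (blue), SD as error bars and points for single regions. The proximal Tbx5 bar at 6.73 is the tallest, the distal bars of Tbx15, Tbx5 and Tbx18 lie between 2.45 and 3.55, and both bars of Tbx2 stand near 0.4.

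The spread between regions, which includes counting error, was largest for the genes with the fewest counts. Counting error alone made up 54.0% (Tbx18) to 78.4% (Tbx3) of the squared deposited SE of the 6 log2 changes. Whether the genes differed in spread beyond counting error was not tested. The coefficient of variation, the SD divided by the mean, was 0.148 for Tbx15, 0.224 for Tbx5, 0.252 for Tbx4 and 0.326 for Tbx18 in proximal, against 0.576 for Tbx3 and 0.9003 for Tbx2. In distal it was 0.3001 for Tbx5, 0.428 for Tbx18 and 0.449 for Tbx15, and the SD exceeded the mean for Tbx2, Tbx3 and Tbx4. Reads of overlapping antisense transcripts cannot be told apart from those of a gene without strand, and the strand of the counting is not given in the sources used here. Tbx3os1 shares 115 exon bases with Tbx3, and D030062O11Rik shares 726 with Tbx18. Gm43120 crosses Tbx15 without shared exon bases. These are annotated on the opposite strand and were not in the deposited table. No near-identical copy of the end of any of the 6 genes was found in the annotated transcripts.

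The 6 genes were set beside their nearest listed neighbours on the chromosome. Between the neighbours Tbx3 and Tbx5, both fitted changes were negative, and the nearest listed genes outside them were Med13l, with a log2 change of -0.58 (adjusted p 0.172), and Rbm19, with -1.20 (adjusted p 0.991), in the authors' deposited table. Around Tbx2 and Tbx4 the nearest were Bcas3, with 0.10 (adjusted p 0.9998), and Brip1, with 1.16 (adjusted p 0.766), in the authors' deposited table. Among the 2 nearest listed genes on either side of each T-box gene, none outside the family was called, beside 0.977% of all genes. With so low a share, the absence of called neighbours says little about them. Rbm19 and Bcas3 also had low means of 1.14 and 1.44 normalized counts, with an SE of 1.15 and 1.05 on their log2 changes.

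**Figure D4:**
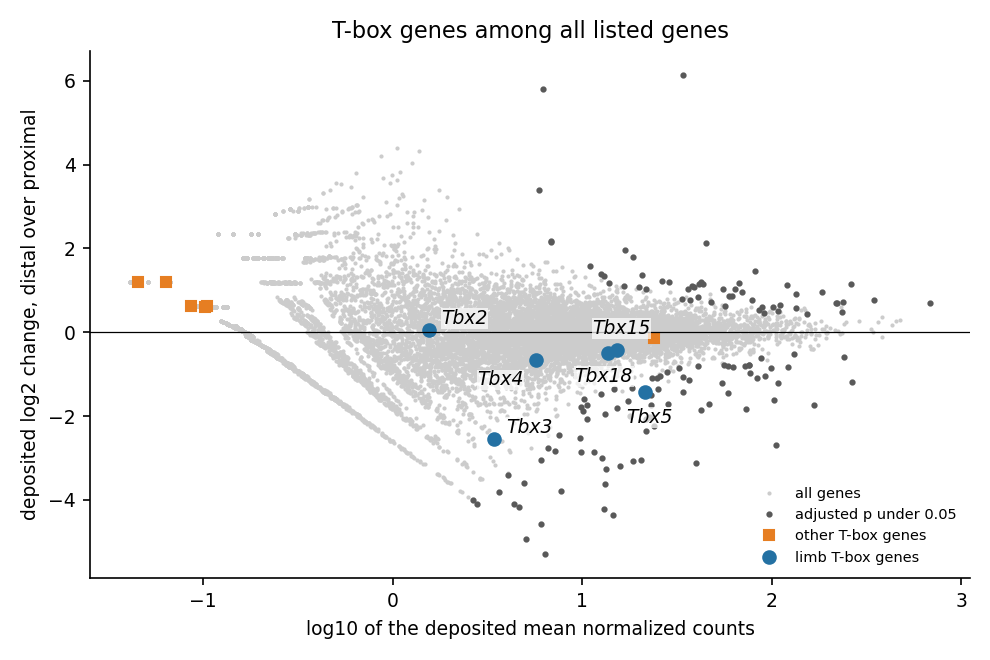
Log2 change, distal over proximal (vertical axis), against log10 of the mean normalized counts (horizontal axis) for all 13916 genes of the authors' deposited table, with called genes in dark grey, the 6 limb T-box genes in blue and the other T-box genes in orange. Tbx5 lies among the called genes at a mean of 21.5, the other 5 limb genes lie among genes not called, and of the other T-box genes only Mga lies to the right of them.

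Of the other T-box genes, 6 of the 12 symbols looked up were in the table and none was called. Mga, a large T-box protein that also binds Max, had a mean of 23.8 normalized counts and a log2 change of -0.14 (SE 0.29, adjusted p 0.991) in the authors' deposited table. Tbx1, Tbx20, Tbx21, Tbx22 and Tbr1 had 1 or 2 proximal counts each and 0 distal counts, too few for a fold.

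Genes said to act upstream of the limb T-box genes, such as Bmp, Smad and hedgehog genes, were listed in 12 of 16 cases, and 0 of these were called. The most abundant in the authors' deposited table were Gli3, the hedgehog effector, at a log2 change of 0.19, Smad5 at -0.06 and Smad4 at 0.41. For the 8 of them whose mean was 10 or more, the median was 0.30, beside 0.00466 over all genes with such a mean. Bmp2 (0.71), Smad4 and Aldh1a2, the retinoic acid synthesis enzyme (1.08), had unadjusted p-values of 0.0173, 0.044 and 0.0316 in the authors' deposited table.

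Genes described as targets of T-box factors in limb or other tissues were listed in 15 of 16 cases, and 1 was called, Gja1, as higher in proximal. Gja1 encodes the gap junction protein connexin 43, described in other tissues as repressed by Tbx2 and Tbx3. At a log2 change of -1.15 (SE 0.28, adjusted p 0.0082) in the authors' deposited table, it lay in the same direction as Tbx5. Fgf10, the limb target of Tbx5 and Tbx4, stood at 0.75 (SE 0.48, adjusted p 0.991) in the authors' deposited table, the opposite sign from Tbx5. Its 23 distal counts and 45 proximal counts gave regions that overlapped. Tcf4, a helix-loop-helix gene whose symbol is also an older name of Tcf7l2, was among the most abundant entries and stood at 0.25 in the authors' deposited table, where it was not called. Osr1, a connective tissue regulator, stood at 1.15 (unadjusted p 0.00908, adjusted p 0.383) by the authors' deposited table. Its regions did not overlap, with at least 5.37 normalized counts in distal and at most 5.11 in proximal. In the direction of Tbx5, Six2 stood at -1.41 (unadjusted p 0.00133, adjusted p 0.116) by the authors' deposited table. Grem1, with 2 distal counts, stood at -2.41 there (unadjusted p 0.0321, adjusted p 0.755). The 5 genes whose mean was 10 or more had a median of -0.57, and all 15 had a median of -0.14, with 4 of them at 0 distal counts, where a fitted value is no bound.

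Proteins reported to bind T-box factors were listed in 21 of 22 cases, and 0 were called. Hdac2, a deacetylase gene, and Yap1 were among the most abundant, at 0.15 and -0.04 on the log2 scale in the authors' deposited table. The 16 genes whose mean was 10 or more had a median of 0.11. Tle1, a Groucho-type corepressor named here after its values were seen, had the lowest adjusted p of the list, 0.0566, and a value of -1.30 in the authors' deposited table, and its regions did not overlap between the sides (at least 14.5 normalized counts in proximal and at most 12.2 in distal). In the opposite direction, the regions of Hdac1, another deacetylase gene, did not overlap either (at least 12.9 in distal and at most 12.6 in proximal), at 0.55 with an adjusted p of 0.991 by the authors' deposited table. Tle3, a relative of Tle1, stood at 0.81 with an unadjusted p of 0.00847 by the authors' deposited table.

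Markers of muscle moved in the same direction as Tbx5 and Tbx3. Of the 8 skeletal muscle markers, Myog, Tnnt1 and Myh3 were called towards proximal at -4.17, -4.09 and -3.27 on the log2 scale in the authors' deposited table, and 5 were not called. The 8 together had 486 proximal counts and 10 distal counts, and Pax3, Pax7, Myf5 and Des were at 0 in distal. The summed normalized counts were 55.8, 61.5, 35.3, 27.4 and 68.6 in the proximal regions and 0, 2.86, 1.79, 11.8 and 3.04 in the distal regions. Among proximal regions, region 5 was the highest in these markers and in Tbx3 and the lowest in Tbx5, while region 2 was the next highest in these markers, the lowest in Tbx3 and the highest in Tbx5. Of the 4 listed smooth muscle and pericyte markers, Acta2, the smooth muscle actin gene, was called at -4.22 in the authors' deposited table, and the others were not called: Tagln stood at -1.16, Cspg4 at 0.21 and Rgs5 at 1.198 there. The 4 together summed to 26.8 to 44.7 normalized counts in proximal and 6.09 to 25.5 in distal, and Acta2 gave 250 of their 352 proximal counts. The part of muscle cells, of depth and of the library in the Tbx5 and Tbx3 differences was not tested.

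**Figure D5:**
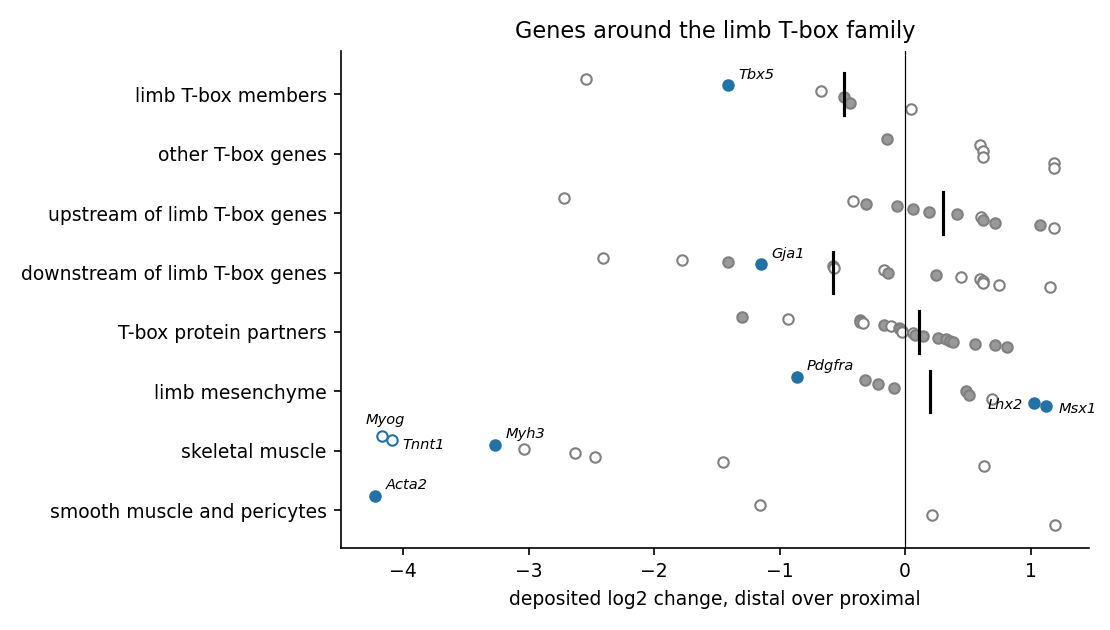
Log2 change, distal over proximal (horizontal axis), of the listed genes in the authors' deposited table, by gene list, with filled points for genes with a mean of at least 10, open points for lower means, blue for called genes and a bar at the median of the genes with a mean of at least 10 where there are 3 or more. Tbx5 and Gja1 are the called genes of the T-box lists, both left of 0, as are Myog, Tnnt1, Myh3 and Acta2, and the fitted values of open points with no counts on a side are no bounds.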

How the data were processed

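The labels put 1 library in each of the groups distal and proximal. Per the file headers, the file is the authors' DESeq2-style results table (column names only; the tool's version and the aligner, counter and strand are not given in the sources used here); GRCm38 and mm10 come from the submitters' processing notes. The mean is a signal in normalized counts deposited by the authors as 1 average over all regions per gene. The authors fitted the deposited log2 change (with a standard error), the deposited statistic is a score equal to their ratio to within 1.91e-06, and the p-value and adjusted p are the authors'. No count test was run here.

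Region counts were computed as follows. The lowest deposited means repeat on 10 steps, each 1 count divided by a region's size factor and the number of regions. The side of a region was read from the deposited contrast, which gives other log2 changes for 1 count in distal than in proximal. All 4624 genes with a mean up to 1.2 had 1 matching set of counts. For higher means, sets of whole counts with that mean were searched within 5 SD of the fitted value of each region. Where none matched at a low mean, all sets with that mean were tried. Sets close to the deposited fit were refitted with a negative binomial model, with a floor of 0.5 on fitted means. Its dispersion, the spread beyond counting error, was set to give the deposited standard error. A set was kept where the log2 change was met to 1e-09. The largest difference for the 6 genes was 4.32e-10, and the expected number of chance matches was at most 0.123 for a gene. On simulated data, 15 of 15 genes gave only the true set. That check is not shown to cover a gene as abundant as Tbx5, with a mean of 21.5 normalized counts. Within 1e-05 of the deposited log2 change, 1229 sets fitted Tbx5, 180 fitted Tbx15 and 68 fitted Tbx18. Tbx2, Tbx3 and Tbx4 had 1 set each there. The single set of Tbx5 therefore rests on the tolerance of 1e-09. Of the 121 genes taken as background, every 60th with a mean from 1.5 to 22, 112 gave 1 set, 2 gave several or none and 7 were too large to search.

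Intervals are 95% and normal for log2 changes and exact (Clopper-Pearson) for counts, where they cover counting error only. Coordinates, exons and overlaps come from GENCODE M21 (GRCm38), and copies were searched with BLAST 2.17.0 (last 300 bases, at least 200 bases at 95% identity). Python 3.11.15, numpy 2.4.6, pandas 2.3.3 and scipy 1.17.1 were used. The genes, lists and comparisons were chosen with earlier results of these data known. Named besides the 6 genes are called genes of the lists, other T-box genes in the table, the 3 most abundant genes of a list, the 3 genes most like Tbx5 and chromosome neighbours. Other genes (Fgf10, Osr1, Six2, Grem1, Isl1, Bmp2, Aldh1a2, Tle1, Tle3, Hdac1, Pax3, Pax7, Myf5, Des, Rgs5) were added after their values were seen. Of the genes this rule names, 2 are not reported here. Alternatives were other thresholds, adjustments, centrings, estimates and lengths, an exact permutation test, and leaving out each region.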

Additional observations from a re-analysis of the deposited data

Results flagged for a closer look

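The distal Tbx15 value of region 4, 23.5 normalized counts from 12 counts, stood far from the other 4 distal regions, the nearest of which was at 12.5. The gap was 0.736 of the whole distal range, above the 95% critical value of 0.71 for 5 values. It was the only one of 12 sets of 5 regions that did so, and chance gives such a gap in about 1 of 20 sets. Without that region the log2 ratio of the Tbx15 means was -0.67 in place of -0.38.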

How the results depend on the processing

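Tbx5 stayed the 1 gene called at adjusted p thresholds of 0.01 and 0.1, with p-values adjusted over the listed genes and after centring. This also held with p-values adjusted over genes whose mean was 10 or more, which leaves out Tbx2, Tbx3 and Tbx4. It held too with a minimum log2 change of 1. That minimum and the threshold of 0.01 could only remove called genes, not add any. Without each region in turn, the log2 ratio of mean normalized counts (pseudocount 0.5) ranged from -1.54 to -1.25 for Tbx5, -2.71 to -1.95 for Tbx3, -1.06 to -0.37 for Tbx4, -0.67 to -0.26 for Tbx15 and -0.58 to -0.22 for Tbx18, always below 0. For Tbx2 this ratio with all regions was -0.10, already opposite in sign to the deposited change of 0.05. Without each region in turn it ranged from -0.54 to 0.37, and 7 of the 10 values had that opposite sign too. These 7 therefore partly reflect the change of estimate. The deposited Tbx2 change itself turned sign after centring on the median of all genes (-0.0167), a shift of 0.07. The permutation test over regions, unadjusted over genes, put Tbx3 past 0.05 with an exact p of 0.00794, where the authors' adjusted p did not. Per kilobase of the longest transcript, Tbx5 had a mean of 5.45 normalized counts per kb in place of 4.60. Of the 44 alternatives other than leaving out a region, 40 kept direction and side of the threshold, or the value within the spread. The ratio of means was added for the pair differences after seeing the data and left their signs as they were. No paired analysis was possible because the deposited table carries no region number that ties a distal to a proximal region. Depth limits Tbx2 and Tbx3, with 5 and 3 distal counts, and the shallow distal regions.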
